A study of Rattus norvegicus with 18 samples.

Results

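The R-spondins Rspo1, Rspo2 and Rspo3, their receptors Lgr4, Lgr5 and Lgr6, and the ubiquitin ligases that they inhibit were followed in synovial cells of the rat knee, enriched for CD11b, after osteoarthritis (OA) or sham surgery. The genes were chosen by name, 8 in all, after a difference in Rspo2 between OA and sham at 4 weeks had drawn attention to the family. Of these, 7 names, Rspo1, Rspo2, Rspo3, Lgr4, Lgr5, Lgr6 and Rnf43, had a row among the 30643 genes of each deposited table, and Znrf3 was not analysed here. The 4-week levels of these 7 genes are therefore given as a description with no test. The 12-week libraries came from other rats, and tests are given for them. The genes were chosen with earlier results of these data known, so these tests cannot be taken as independent of that choice.

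R-spondins are secreted proteins that amplify Wnt signalling. The ligases ZNRF3 and RNF43 remove Frizzled receptors from the cell surface, and an R-spondin that binds both a ligase and an LGR receptor takes the ligase away, so that more Frizzled stays available to Wnt ligands. Wnt binding to Frizzled and its co-receptors LRP5 and LRP6 stabilises β-catenin, which acts with TCF and LEF factors on target genes such as Axin2, Lgr5 and Rnf43. In the joint, R-spondin 2 is best known as a product of stromal cells of the synovium.

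All animals were male wild-type Sprague Dawley rats, aged 12 weeks at surgery. OA was induced by cutting the anterior cruciate ligament and the medial meniscotibial ligament, which destabilises the medial meniscus. Sham knees had an arthrotomy with both ligaments left intact. Synovial cells were enriched with CD11b/c magnetic beads 4 or 12 weeks later, and each library was a pool, of 4 rats at 4 weeks and of 3 rats at 12 weeks. There were 5 libraries per surgery at 4 weeks and 4 per surgery at 12 weeks, by the labels, which at 12 weeks is fewer than the replicates that the methods of the study state.

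Levels are given as normalized reads, the reads of a gene divided by a size factor of the library. The reads themselves could be recovered, and totalled 4662344 to 18080503 per library. A count of 3 reads was taken as the detection floor, worth 2.06 to 6.96 normalized reads at 4 weeks and 2.27 to 3.82 at 12 weeks, for counting error only. Sham replicate 3 of 4 weeks stood apart. It had the fewest reads, 4662344, but the most genes with a read, 25919, against 9994823 to 17235069 reads and 21351 to 25187 genes in the other 9 libraries of that time. It was the highest of the 10 libraries for Rspo3, Lgr5, Lgr6 and Rnf43 and the lowest for Lgr4, so 4-week values of the family are also given without it. All 12 macrophage markers looked for reached a mean of 10 normalized reads at both times. So did 13 of 14 synovial fibroblast markers and 6 of 7 endothelial markers, so the sorted RNA was not of macrophages alone. In such bulk RNA, fewer cells of a type and less RNA per cell cannot be told apart.

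Promoters are shown because the genes they belong to recur in the comparisons: Rspo1, a ligand read at over 100 normalized reads in every library, and Axin2 and Rnf43, feedback targets of β-catenin that the pathway comparison and the low genes turn on. The sequences are the 250 bases before the annotated start in RefSeq on the GRCr8 build, 5′ to 3′ on the gene's + strand. Capitals mark CTTTGA, the core of the TCF and LEF motif, which was searched on both strands (TCAAAG on the other).
Axin2, chr10:94398535-94398784: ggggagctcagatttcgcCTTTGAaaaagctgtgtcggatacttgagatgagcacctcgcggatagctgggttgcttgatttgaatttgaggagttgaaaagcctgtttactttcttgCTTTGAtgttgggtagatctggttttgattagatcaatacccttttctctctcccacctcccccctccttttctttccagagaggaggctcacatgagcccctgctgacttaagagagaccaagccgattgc
Rnf43, chr10:72963116-72963365: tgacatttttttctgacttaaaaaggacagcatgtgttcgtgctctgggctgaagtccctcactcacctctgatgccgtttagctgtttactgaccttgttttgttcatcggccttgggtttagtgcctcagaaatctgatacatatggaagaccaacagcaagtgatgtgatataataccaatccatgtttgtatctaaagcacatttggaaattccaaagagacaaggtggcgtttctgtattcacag
Rspo1, chr5:142536040-142536289: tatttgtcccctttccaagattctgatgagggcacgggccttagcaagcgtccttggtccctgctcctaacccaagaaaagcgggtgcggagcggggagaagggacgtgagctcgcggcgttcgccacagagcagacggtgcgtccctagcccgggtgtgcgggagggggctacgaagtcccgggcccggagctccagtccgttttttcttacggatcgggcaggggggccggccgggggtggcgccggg
The Axin2 window held 2 matches, 232 and 132 bases before the start. The Rnf43 and Rspo1 windows held 0, as did those of Rspo3, Lgr4 and Lgr6. Of 27457 rat promoters of this length, 3782 (13.8%) held at least 1 match, and of 59 matched promoters of the pathway genes used here, 8 did. The Rspo1 window was rich in G and C, at 66.4% against a median of 52.0%, and held 24 CG dinucleotides against a median of 6.0. A match is a run of letters and not a known binding site.

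Rspo1 (ENSRNOG00000009656) and Rspo2 (ENSRNOG00000037687) were the R-spondins with a mean above 10 normalized reads, and both had higher means in OA than in sham at both times. Rspo2 was 55.5 ± 17.1 normalized reads in OA and 26.3 ± 5.92 in sham at 4 weeks (SD, n = 5 each), and 96.0 ± 20.6 in OA and 49.8 ± 28.6 in sham at 12 weeks (SD, n = 4 each). Rspo1 was 266 ± 49.5 in OA and 179 ± 30.7 in sham at 4 weeks (SD, n = 5 each), and 338 ± 48.3 in OA and 235 ± 68.7 in sham at 12 weeks (SD, n = 4 each). Neither passed the adjusted test at 12 weeks.

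At 4 weeks, the 5 OA libraries held 46.5, 48.6, 39.8, 59.0 and 83.5 normalized reads of Rspo2, from 51 to 77 reads. The 5 sham libraries held 25.8, 18.4, 32.5, 31.6 and 23.0, from 14 to 28 reads. The groups did not overlap, all OA libraries lay higher, and OA replicate 5 was the highest. On the log2 scale OA exceeded sham by 1.03 (SE 0.22), or by 1.11 without sham replicate 3. These are the values that drew attention to the family. Rspo2 was the only 1 of the 7 genes whose groups did not overlap with OA higher, where 1.18% of the 14861 genes tested at 4 weeks behaved so.

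Rspo1 at 4 weeks stood at 261, 233, 314, 317 and 205 normalized reads in OA. The sham libraries stood at 204, 133, 167, 183 and 208. The groups met at OA replicate 5, which lay among the sham libraries, and the other 4 OA libraries were above all sham libraries. The log2 difference, OA minus sham, was 0.57 (SE 0.15), or 0.55 without sham replicate 3.

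At 12 weeks, Rspo2 was read at 96.9, 67.4, 116 and 104 normalized reads in the OA libraries, from 66 to 111 reads. In sham it was read at 61.2, 16.3, 82.7 and 39.1, from 19 to 81 reads. The sham libraries spread widely, and sham replicate 3 was above OA replicate 2. OA exceeded sham by 1.13 on the log2 scale (SE 0.42, limma adjusted p = 0.349). An exact permutation test gave p = 0.0571 (two-sided, where 4 against 4 libraries cannot go below 0.0286). Sham replicate 2 carried part of its size, as the log2 difference was 0.68 without that library. Leaving out sham replicate 3 in its place gave 1.44, and over all alternatives, edgeR and DESeq2 included, the adjusted p-value ranged from 0.123 to 0.751. The lowest came from limma with a block by replicate number, though these numbers do not pair the libraries. The next lowest was 0.156, by limma without sham replicate 3.

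Rspo1 at 12 weeks was read at 284, 361, 314 and 393 normalized reads in OA. The sham libraries held 269, 169, 187 and 315. Sham replicates 1, 2 and 3 were below all OA libraries, and sham replicate 4 lay within the OA range. OA exceeded sham by 0.56 on the log2 scale (SE 0.19, limma adjusted p = 0.332), and an exact permutation test gave p = 0.0857 (two-sided). The adjusted p-value ranged from 0.183 to 0.751 over the alternatives. Its lowest value came from limma with a block by replicate number, though these numbers do not pair the libraries. The next lowest was 0.221, by DESeq2.

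**Figure D1:**
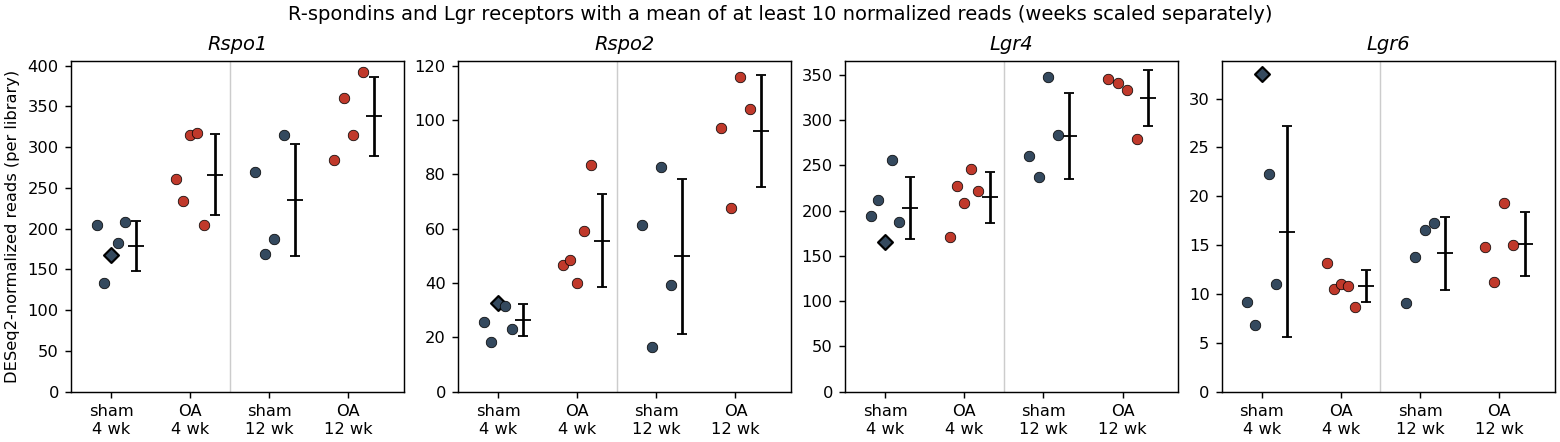
Normalized reads per library of the 4 genes with a mean of at least 10, Rspo1, Rspo2, Lgr4 and Lgr6, in OA and sham at 4 and 12 weeks. Points are libraries, black bars are the mean ± SD, and the diamond is sham replicate 3 of 4 weeks. The Rspo2 groups are apart at 4 weeks (39.8 to 83.5 in OA, 18.4 to 32.5 in sham) and overlap at 12 weeks, the Lgr4 groups overlap at both times, and the diamond is the highest point for Lgr6.

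Rspo3 (ENSRNOG00000011568), the R-spondin that also acts in vessels, was close to the floor. At 4 weeks it was read at 6.24, 2.86, 4.81, 2.49 and 4.34 normalized reads in OA, from 3 to 9 reads, and at 7.37, 3.88, 18.6, 4.69 and 5.52 in sham, from 4 to 8 reads. The high sham value was replicate 3, where 8 reads were scaled up by its low depth. This gave a log2 difference of -0.66 (SE 0.40), or of -0.33 without that library. At 12 weeks OA held 12.2, 4.09, 3.22 and 8.58 and sham 1.51, 5.16, 2.54 and 9.19, from 2 to 14 reads in all, with a log2 difference of 0.57 (SE 0.59). Rspo3 was too low to be tested, and these groups overlapped at both times.

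Rspo4 (ENSRNOG00000009662), the remaining R-spondin, was lower still. It had 7 reads over the 5 OA libraries and 5 reads over the 5 sham libraries at 4 weeks, where 4 of 10 libraries had 0 reads. At 12 weeks it had 7 reads in OA and 3 in sham, and 1 of 8 libraries had 0. All 18 libraries were at or under the floor of 3 reads, so no fold is given.

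Among the receptors, Lgr4 (ENSRNOG00000005715), the most widely expressed LGR in adult tissues, was well detected and its groups overlapped at both times. At 4 weeks it was read at 171, 228, 209, 246 and 221 normalized reads in OA and at 194, 212, 165, 255 and 187 in sham. The lowest sham value was replicate 3. Its log2 difference was 0.09 (SE 0.13), or 0.02 without that library. At 12 weeks OA held 346, 341, 333 and 279 and sham held 261, 237, 347 and 284. Sham replicate 3 was above all OA libraries, and OA replicate 4 was below sham replicate 4. The log2 difference of 0.21 (SE 0.12) had a limma adjusted p of 0.494 and an exact permutation p of 0.257 (two-sided). Leaving out 1 library at a time gave 0.13 to 0.32, the highest without sham replicate 3 (limma adjusted p = 0.276).

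Lgr6 (ENSRNOG00000005093), which is also the receptor of the lipid mediator maresin 1 on phagocytes, was low. At 4 weeks it was read at 13.2, 10.5, 11.0, 10.8 and 8.68 normalized reads in OA and at 9.21, 6.79, 32.5, 22.3 and 11.0 in sham. The sham spread came from replicates 3 and 4. Its log2 difference was -0.35 (SE 0.39), and -0.06 without replicate 3. At 12 weeks OA held 14.8, 11.2, 19.3 and 15.0 and sham 9.07, 13.8, 16.5 and 17.2. The log2 difference of 0.10 (SE 0.27) had a limma adjusted p of 0.888 and an exact permutation p of 0.686 (two-sided). It turned to -0.02 without OA replicate 3 and to -0.08 without sham replicate 1.

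Lgr5 (ENSRNOG00000004221), a marker of epithelial stem cells and a β-catenin target, was read at 1.39, 2.86, 0.687, 4.98 and 1.08 normalized reads in OA at 4 weeks, from 1 to 6 reads. In sham it was read at 2.76, 10.7, 23.2, 5.86 and 3.68, from 3 to 11 reads. OA replicates 1, 3 and 5 were below all sham libraries. The log2 difference was -1.49 (SE 0.59), or -1.10 without sham replicate 3. Since 4 of the 5 OA libraries held 3 reads or fewer, only a handful of reads stood behind this value, which has no test. At 12 weeks the same receptor was read at 7.85, 10.2, 6.43 and 5.36 in OA and at 3.02, 9.45, 7.63 and 4.60 in sham, from 4 to 11 reads. The groups overlapped, and the log2 difference was 0.30 (SE 0.36).

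Rnf43 (ENSRNOG00000007606), the ligase, was low as well. At 4 weeks it was read at 4.85, 6.67, 1.37, 4.15 and 1.08 normalized reads in OA and at 4.60, 9.69, 23.2, 5.86 and 1.84 in sham, from 1 to 10 reads. The highest value was again sham replicate 3, from 10 reads. Its log2 difference was -0.93 (SE 0.63), or -0.52 without it. At 12 weeks OA held 6.98, 2.04, 7.51 and 8.58 and sham held 4.53, 10.3, 2.54 and 9.19, from 2 to 12 reads. The groups overlapped at both times, and the 12-week log2 difference was -0.05 (SE 0.55).

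**Figure D2:**
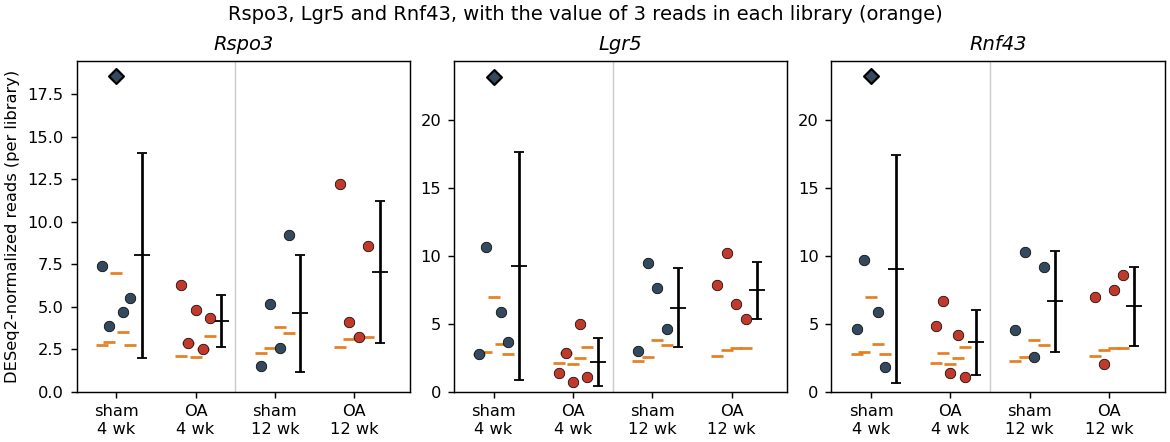
Normalized reads per library of Rspo3, Lgr5 and Rnf43, the genes with a mean under 10, in OA and sham at 4 and 12 weeks. Points are libraries, black bars the mean ± SD, orange ticks the value of 3 reads in each library, and the diamond sham replicate 3 of 4 weeks. The diamond is the highest 4-week point in each panel (18.6 for Rspo3, 23.2 for Lgr5 and Rnf43), and many points lie near their tick.

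Read across the family, 3 of the 7 genes had a positive log2 difference and 4 a negative one at 4 weeks, and at 12 weeks 6 were positive and 1 was negative. Over all tested genes, 57.1% were positive at 4 weeks and 47.5% at 12 weeks. Those shares cover only genes that passed the filter on low values, and 3 of the 7 did not. With every gene with a read taken, 11650 of 29631 were positive at 4 weeks and 15625 of 28435 at 12 weeks. The negative 12-week value, that of Rnf43, turned positive without OA replicate 2, sham replicate 2 or sham replicate 4 (0.33, 0.19 and 0.14), and the positive one of Lgr6 turned negative as given above. Only 4 of the 7 passed the filter on low values at either time. Of these 4 at 12 weeks, 0 were called at an adjusted p-value under 0.05 and a log2 difference of at least 0.5, by limma, edgeR or DESeq2. By limma this also held for all genes (0 of 14666, 0%), and DESeq2 called 98 of 14101 (0.695%). At an unadjusted p-value under 0.05 in limma, 2 of the 4 were higher in OA, Rspo1 at 0.0158 and Rspo2 at 0.0216, where 5.75% of all tested genes were. At 12 weeks 0 of the 7 had groups that did not overlap in either direction, where 6.29% of tested genes did. In 2.85% of tested genes every OA library was above all sham libraries. These shares leave out genes under the filter, as 3 of the 7 were.

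The tables of each time were normalized separately, so levels across time were set side by side only as CPM, which corrects only for the total, of the recovered reads, and time was not tested. From low to high, the Rspo2 means were those of sham at 4 weeks (2.29 ± 0.561 CPM, n = 5), sham at 12 weeks (3.60 ± 2.05, n = 4), OA at 4 weeks (4.71 ± 1.40, n = 5) and OA at 12 weeks (6.94 ± 1.50, n = 4), each with its SD. Neighbours in that order lay within about the sum of their SDs, and the ends did not overlap, at 1.61 to 3.00 against 4.83 to 8.32 CPM. Rspo1 had the same order of groups. It stood at 15.5 ± 2.38 and 17.0 ± 4.87 CPM in sham at 4 and 12 weeks, and at 22.7 ± 4.35 and 24.4 ± 3.45 in OA. The sham groups of the 2 times overlapped widely for Rspo1, as did the OA groups. Lgr4 had its higher means at 12 weeks. It stood at 17.6 ± 2.69 in sham and 18.3 ± 2.22 in OA at 4 weeks, and 20.4 ± 3.21 in sham and 23.5 ± 2.21 in OA at 12 weeks. Group means of Lgr6 lay between 0.923 and 1.44 CPM, and those of Rspo3, Lgr5 and Rnf43 at 0.825 CPM or below.

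The RNA of other cell types also differed between the groups. The mean log2 level of the 13 fibroblast markers was 10.85 in OA and 10.52 in sham at 4 weeks, a difference of 0.33, and 11.31 in OA and 10.93 in sham at 12 weeks, a difference of 0.38. Their summed level ran from 80232 to 121473 normalized reads in OA and from 54308 to 121656 in sham at 4 weeks, and from 94919 to 121560 and from 66969 to 99391 at 12 weeks. The macrophage markers differed by 0.12 and 0.11, with summed levels of 138826 to 167575 in OA and 140405 to 147050 in sham at 4 weeks, and of 186008 to 221390 and 154381 to 220372 at 12 weeks. Other lists differed too, some by more than the fibroblast list and others by less. At 12 weeks cartilage markers differed by 0.86, osteoblast markers by 0.76, skeletal muscle markers by 0.62, mast cell markers by -0.49 and endothelial markers by -0.24. The skeletal muscle groups did not overlap there, at 6.86 to 7.55 in OA and 6.32 to 6.73 in sham. At 4 weeks adipocyte markers differed by -0.62 and mast cell markers by -0.49. Sham replicate 3 was the highest sham library for both. It held 5.66 for adipocyte markers, against 2.91 to 3.65 in the other sham libraries, and 7.94 for mast cell markers, against 6.79 to 7.36. None of the markers present was at 0 in all libraries. The fibroblast and macrophage marker levels were thus higher on average in OA, as were Rspo1 and Rspo2, and their part in the OA differences was not tested.

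The relation of the family to these markers within groups was also computed. After each library was centred on its group, the log2 level of Rspo1 had a Pearson r of 0.61 (permutation p = 0.0278) and a Spearman rho of 0.59 (permutation p = 0.0252) with the macrophage marker level over 18 libraries. Its r with the fibroblast marker level was -0.11 (permutation p = 0.695), with a rho of -0.08 (permutation p = 0.783). Rspo2 had an r of -0.58 (permutation p = 0.0822) and a rho of -0.60 (permutation p = 0.0211) for macrophage markers. For fibroblast markers its r was 0.50 (permutation p = 0.0543) and its rho 0.51 (permutation p = 0.0516). Fibroblast markers were not particular in this, as the r of Rspo2 was 0.53 with endothelial markers (permutation p = 0.0789), 0.53 with pericyte and smooth muscle markers (permutation p = 0.143) and 0.47 with osteoblast markers (permutation p = 0.0513). In all, 40 such relations were computed, of 4 genes with 10 marker lists, and 0 passed adjustment (lowest adjusted permutation p 0.31 for r), with 5 at an unadjusted p under 0.05. Besides Rspo1 with macrophage markers, these 5 were Lgr4 with fibroblast markers (r = 0.60, permutation p = 0.0326) and Lgr6 with cartilage (r = 0.67, permutation p = 0.034), osteoblast (r = 0.61, permutation p = 0.0416) and neural and Schwann markers (r = 0.62, permutation p = 0.0206). The difference between genes in these relations was not tested.

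These relations leaned on few libraries. Without the 2 libraries farthest from the median of the marker level, r was 0.49 for Rspo1 with macrophage markers, -0.32 for Rspo2 with macrophage markers and 0.35 for Rspo2 with fibroblast markers. It was 0.24 for Lgr4 with fibroblast markers. For Lgr6 it was 0.48 with cartilage, 0.41 with osteoblast, and 0.54 with neural and Schwann markers. By time, r was 0.43 over the 10 libraries of 4 weeks and 0.75 over the 8 of 12 weeks for Rspo1 with macrophage markers. It was -0.80 and -0.49 for Rspo2 with macrophage markers, and 0.35 and 0.75 for Rspo2 with fibroblast markers. With endothelial markers the r of Rspo2 was 0.64 and 0.50. With pericyte and smooth muscle markers it was -0.20 and 0.68, and with osteoblast markers 0.13 and 0.85. For Lgr4 with fibroblast markers it was 0.51 and 0.77. For Lgr6 it was 0.68 and 0.66 with cartilage, 0.77 and 0.14 with osteoblast, and 0.75 and 0.44 with neural and Schwann markers. All lists share each library's depth and size factor, and cell types in a sort trade against each other.

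**Figure D3:**
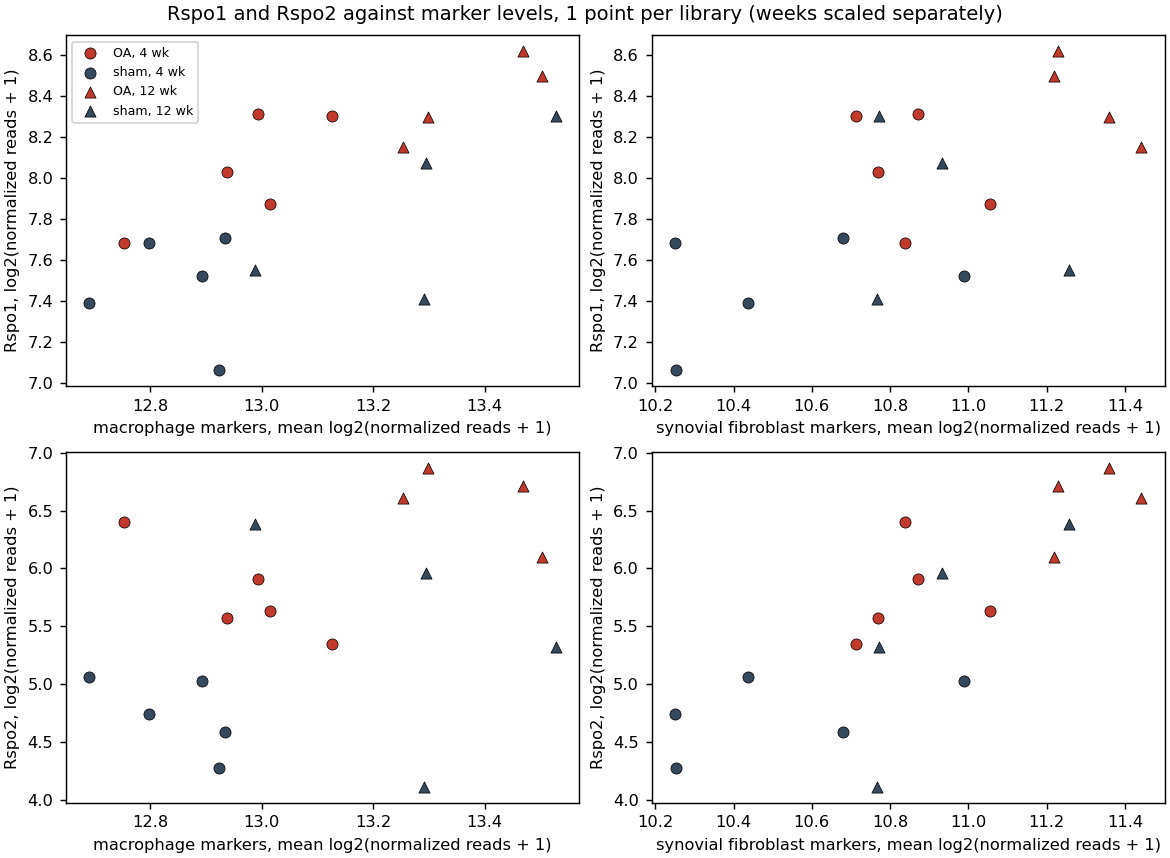
Log2 level of Rspo1 and Rspo2 per library against the mean log2 level of macrophage or synovial fibroblast markers in the same library. Circles are 4-week and triangles 12-week libraries, red is OA and dark is sham. Centred on their group, Rspo1 has r = 0.61 and Rspo2 r = -0.58 with macrophage markers, and neither relation passes adjustment over the 40 computed.

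The genes whose group-centred pattern was most like that of each family gene were sought among 14419 others, over 18 libraries, as a description. For Rspo1 these were Npc2, a cholesterol carrier of the lysosome, at r = 0.90 and Trem2, a lipid-sensing receptor of myeloid cells, at r = 0.89. For Rspo2 they were Epdr1 at r = 0.88, Jph1 at 0.86 and Scara3 at 0.85. For Lgr4 they were Reck, a membrane-anchored inhibitor of matrix proteases, at r = 0.85 and Pcdhgb8, a protocadherin, at 0.84. For Lgr6 the highest was Ucma, a protein of cartilage matrix, at r = 0.89, or 0.79 without sham replicate 3 of 4 weeks. Rspo1 and Rspo2 themselves had an r of 0.08, and Rspo2 and Lgr4 one of 0.38. The highest of so many values are high in part because they were picked.

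The rest of the Wnt pathway was taken from lists of 79 names, of which 77 were in the tables and 57 passed the filter at each time. Of these 57, 0 were called at 4 weeks and 0 at 12 weeks, as for all genes in limma (0%). At an unadjusted p-value under 0.05 in limma, 1 was higher and 5 were lower in OA at 4 weeks, where 4.1% and 3.82% of all genes were, and 5 were higher and 5 lower at 12 weeks, where 5.75% and 6.62% of all genes were. The median log2 difference was -0.07 at 4 weeks and -0.05 at 12 weeks, against 0.03 and -0.01 over all tested genes. When 1 library was left out at a time, the unadjusted counts ran from 0 to 3 higher and 1 to 8 lower at 4 weeks, and from 3 to 7 higher and 3 to 9 lower at 12 weeks.

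The Wnt ligands, which R-spondins need for their action, were mostly near the floor. Only 6 of 19 passed the filter. At 4 weeks Wnt9b had the highest log2 difference among these, 0.36, at 46.7 ± 11.9 normalized reads in OA and 36.5 ± 11.6 in sham (SD, n = 5 each), at a limma adjusted p of 0.699. Wnt5b, a ligand of β-catenin-independent signalling, was 16.2 ± 5.04 in OA and 9.96 ± 3.68 in sham at 12 weeks (SD, n = 4 each), a log2 difference of 0.66 (SE 0.30) at a limma adjusted p of 0.409. At 4 weeks its log2 difference was -0.45, with its sham value of 53.4 in replicate 3 against 9.21 to 15.7 in the other sham libraries, and without that library the log2 difference was -0.08.

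Frizzled genes, whose proteins the ligases remove, lay in both directions at 12 weeks, and none passed the adjusted test. Fzd2 was 62.8 ± 13.4 in OA and 35.7 ± 5.27 in sham (SD, n = 4 each), a log2 difference of 0.78 (SE 0.19) with a limma adjusted p-value of 0.277. Fzd4 was 1281 ± 161 in OA and 1755 ± 289 in sham (SD, n = 4 each), a log2 difference of -0.45 (SE 0.12) with a limma adjusted p-value of 0.278. The groups of neither gene overlapped, where 6.29% of tested genes at 12 weeks had groups that did not overlap in either direction. Fzd2 and Fzd4 were named as the highest and lowest of the 10 tested in their list. That choice favours groups that lie apart, so the share is no measure for them. The co-receptors differed little, with log2 differences of -0.08 for Lrp5 and 0.03 for Lrp6 at 4 weeks and of -0.22 and -0.06 at 12 weeks. Without sham replicate 3 of 4 weeks the Lrp6 value turned to -0.09. Fzd8 was listed at 0 in every library.

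Of the secreted inhibitors, 9 of 13 names passed the filter. Sfrp5, a decoy that binds Wnt ligands, had the lowest log2 difference of these at 4 weeks, -0.65 (SE 0.20), at 33.5 ± 4.33 in OA and 54.8 ± 17.5 in sham (SD, n = 5 each), with a limma adjusted p-value of 0.511. Dkk3 was 635 ± 123 in OA and 472 ± 125 in sham (SD, n = 5 each), with a log2 difference of 0.44 (SE 0.18) and a limma adjusted p-value of 0.607. At 12 weeks Sfrp4 was 916 ± 118 in OA and 524 ± 254 in sham (SD, n = 4 each), a log2 difference of 0.93 (SE 0.29) with a limma adjusted p-value of 0.311.

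Inside the cell, the β-catenin gene Ctnnb1 had log2 differences of 0.03 at 4 weeks and 0.05 at 12 weeks. Lef1, a partner of β-catenin on DNA, was 14.2 ± 4.26 in OA and 24.7 ± 12.3 in sham at 4 weeks (SD, n = 5 each), a log2 difference of -0.69 (SE 0.30) with a limma adjusted p-value of 0.616. Without sham replicate 3, which held 46.4, it was -0.44 (SE 0.23). The count of TCF and LEF factors and co-activators lower at an unadjusted p-value under 0.05 in limma then went from 2 to 0 of 8. That count was also 0 without OA replicate 1, OA replicate 2, OA replicate 3 or sham replicate 5. At 12 weeks the log2 difference of Lef1 was 0.32, with a limma adjusted p-value of 0.576. Tcf7l1, mainly a repressor in this family, was 92.4 ± 18.8 in OA and 135 ± 23.7 in sham at 12 weeks (SD, n = 4 each), with a limma adjusted p-value of 0.317. Tcf7 had log2 differences of -0.18 at 4 weeks and -0.15 at 12 weeks. Amer1, a scaffold of the β-catenin destruction complex, had a log2 difference of -0.29 (SE 0.10) at 12 weeks, with a limma adjusted p-value of 0.332. The highest of its list were Gsk3b at 4 weeks, 0.17 (0.08 without sham replicate 3), and Dvl2 at 12 weeks, 0.12. Their limma adjusted p-values were 0.691 and 0.556. In that list 5 of 10 were positive at 4 weeks and 2 of 10 at 12 weeks.

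Genes listed as feedback targets of β-catenin had mostly negative log2 differences, and 0 of 8 tested were called. Myc and Ccnd1, in that list, are targets but not feedback regulators. The log2 difference was negative for 7 of 8 at 4 weeks, with a median of -0.16, and for 8 of 8 at 12 weeks, with a median of -0.11. Over all tested genes 42.9% were negative at 4 weeks and 52.5% at 12 weeks, so the counts of this short list are a description and were not tested. Negative values were not particular to this list. Of the 57 tested pathway genes, which include it, 36 were negative at 4 weeks and 37 at 12 weeks. The Dishevelled and destruction complex list had medians of 0.0002 at 4 weeks and -0.11 at 12 weeks. Leaving out 1 library at a time gave 6 or 7 of 8 negative at 4 weeks and 6 to 8 at 12 weeks. Axin2 (ENSRNOG00000055010), the scaffold whose promoter is shown above, ran from 69.4 to 97.8 normalized reads in OA (median 91.1) and from 84.7 to 120 in sham (median 109) at 4 weeks. These groups overlapped, and the log2 difference was -0.32 (SE 0.14) with a limma adjusted p-value of 0.611. At 12 weeks Axin2 was 106 ± 12.5 in OA and 122 ± 20.0 in sham (SD, n = 4 each), a log2 difference of -0.20 (SE 0.15) with a limma adjusted p-value of 0.575. Myc had the lowest log2 difference of these at 12 weeks, -0.50, with a limma adjusted p-value of 0.411, and Tnfrsf19 had the lowest at 4 weeks, -0.62, with a limma adjusted p-value of 0.611. Bambi had the only positive log2 difference of the list at 4 weeks, 0.09, with a limma adjusted p-value of 0.795. Without sham replicate 3 of 4 weeks, the 4-week values were -0.33 for Axin2, -0.47 for Tnfrsf19 and 0.06 for Bambi. The receptor Lgr5 and the ligase Rnf43, targets too, were too low to join this count.

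**Figure D4:**
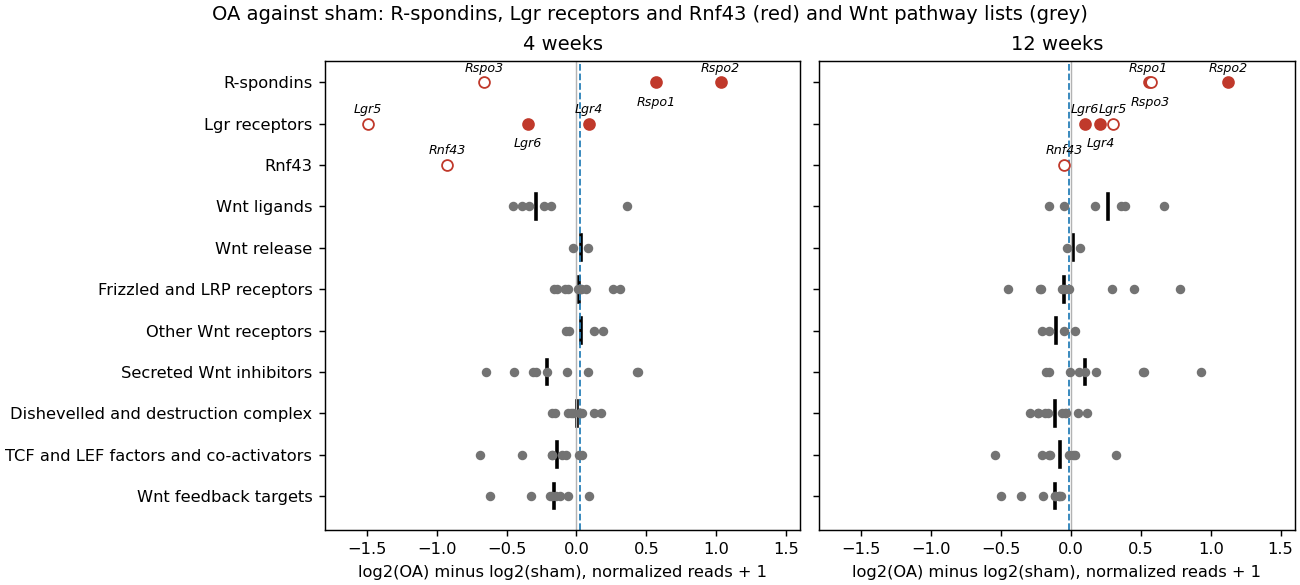
Log2 difference, OA minus sham, of the R-spondin family genes and of the Wnt pathway genes by list, at 4 and 12 weeks. Filled red points are tested family genes, open red points family genes with a mean under 10, grey points tested pathway genes, black bars list medians, and the blue dashed line the median of all tested genes. Rspo1 and Rspo2 are to the positive side at both times (0.57 and 1.03 at 4 weeks, 0.56 and 1.13 at 12 weeks). The feedback targets have medians of -0.16 and -0.11. Medians of other lists lie to either side, with Wnt ligands at -0.29 and 0.26.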

How the data were processed

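CD11b-sorted synovial cells were profiled by stranded total RNA sequencing after removal of ribosomal RNA. The authors checked read quality with fastp 0.20.0, aligned the reads to Rnor_6.0 with STAR 2.7.6a, removed duplicates with Sambamba, counted them with featureCounts 2.0.0 and normalized them with DESeq2 1.24.0. Whether strand was used in counting is not given in the sources used here. The deposited signal is normalized reads per gene and library, 1 table per time. The deposited tables also hold the authors' own comparison, with log2 fold changes, a score (the Wald statistic) and p-values, which were not used. All normalized values were whole multiples of a single read (tolerance 0.01), so the count of reads was recovered.

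Within each time, limma 3.58.1 (R 4.3.3) with a mean-variance trend compared OA with sham on log2(normalized reads + 1), which understates changes of low genes. The test took genes whose mean reached 10, and p-values were adjusted over all of them by Benjamini and Hochberg. A gene was called at an adjusted p-value under 0.05 and a log2 fold change of at least 0.5. For untested genes, the SE is that of the difference of means. Single genes were also tested by exact permutation (scipy 1.17.1). Alternatives were pseudocounts of 0.5 and 5, a mean of at least 50 or any read in place of the filter, no fold-change minimum, TMM scaling, edgeR 4.0.16 and DESeq2 1.42.0 on recovered reads, a replicate block, and leaving out each library. Relations with marker levels used 100000 permutations within groups, for marker lists with at least 3 genes, and were added after the data were seen. Pathway genes named were drawn from those with the highest or lowest log2 difference of a list at each time. Axin2, Tcf7, Lef1, Ctnnb1, Lrp5, Lrp6 and Rspo4 were added. Not every gene so drawn is given with its values here. Fzd8 was named after its values were seen. The family genes and all lists were chosen with earlier results of these data known. The fits and permutations were tested on simulated data. Libraries of a group differed beyond sampling noise (chi-square per degree of freedom 5.84 to 38.8 over 32 pairs), so each counted as a sample. Gene lengths were not used, so levels are not ranked between genes. Python 3.11.15 was used.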

Additional observations from a re-analysis of the deposited data

Results flagged for a closer look

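Libraries far from the others of their group were sought in 144 groups of values, and 11 were found, where chance gives about 1 in 20 groups. Among the R-spondin family this was Rspo3 in sham replicate 3 of 4 weeks, at 18.6 normalized reads against 3.88 to 7.37 in the other 4 sham libraries. The same library was far from its group for Lef1 (46.4 against 15.7 to 21.2), for Wnt5b (53.4 against 9.21 to 15.7) and, on the low side, for Lrp6 (1070.0 against 1570.1 to 1749.8). OA replicate 5 of 4 weeks was far above its group for Bcl9l (539 against 449 to 474), Fzd4 (1569 against 1141 to 1231) and Tcf7l1 (121 against 70.7 to 80.3). Sham replicate 4 of 4 weeks was far above for Fzd4 (1491 against 1339 to 1377) and Sfrp4 (665 against 279 to 342). OA replicate 4 was far above at 4 weeks for Lef1 (21.6 against 10.8 to 13.7), and the library of that number at 12 weeks was far below for Lrp5 (1143 against 1387 to 1430).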

How the results depend on the processing

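Of 211 log2 differences of the R-spondin family genes under an alternative, 206 kept their direction. Changing the filter or adding the replicate block leaves a log2 difference in limma as it was, so those values could not turn. Nor could Rspo2 at 4 weeks turn when 1 library was left out, as its groups did not overlap. The 5 that turned were of Rnf43 and Lgr6 at 12 weeks. That of Rnf43, -0.05, was 0.33 without OA replicate 2, 0.19 without sham replicate 2 and 0.14 without sham replicate 4, in a range of -0.368 to 0.329 when 1 library was left out. That of Lgr6, 0.10, was -0.02 without OA replicate 3 and -0.08 without sham replicate 1, in a range of -0.0822 to 0.23. Rspo2 kept a positive log2 difference throughout, from 0.87 to 1.14 at 4 weeks and from 0.68 to 1.44 at 12 weeks, as did Rspo1, from 0.46 to 0.66 and from 0.41 to 0.71, with 5 of 34 values under the fold-change minimum of 0.5. For Rspo3, Lgr5 and Rnf43, TMM scaling, edgeR, the replicate block and the mean of at least 50 gave no value, since they were below the filter. The family genes at 12 weeks and the pathway genes at both times had 0 calls under every alternative. Over all genes, the 0 calls of limma at 4 weeks became 1 with TMM scaling and 27 with DESeq2 (18 higher, 9 lower), and 0 to 1 with 1 library left out (1 without sham replicate 3). The 0 calls at 12 weeks became 98 with DESeq2 (80 higher, 18 lower), and 0 to 81 with 1 library left out, 81 without sham replicate 3 and 1 without sham replicate 4. The cause was not tested.

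Libraries that share a number were made from different rats. The correlation of their deviations ran from -0.13 to 0.30 over 9 pairs, and 1 of 9 had its own number as best match, so the numbers do not pair them. With a replicate block, limma called 1 gene at 4 weeks and 0 at 12 weeks, and the adjusted p-value of Rspo2 at 12 weeks was 0.123.

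Depth limits the low genes, as Rspo3, Lgr5 and Rnf43 rest on at most 14 reads in any library.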
